A study of Mus musculus with 48 samples.

Results

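Etv1, Efr3a, Dlk2, Rnf217, Slc8a1, Pex5l, Brinp1, Slc6a17, Map2k4 and Atp1b1 are 10 neuronal genes followed here in the mouse hippocampus, out of 16014 genes in the expression table. They were chosen by a measured value: each was lower in 5xFAD than in Wild-type hippocampus, so that difference is given here as a description with no test. All 10 were found in the table by symbol, and all 10 passed the filter on low values that left 15975 genes for testing. RNA was sequenced from 48 libraries of C57BL/6 mouse brain in 12 groups of 4, made from 2 genotypes, 2 diets and 3 dissected regions. The groups were 5xFAD on vehicle chow, 5xFAD + PLX5622, Wild-type + PLX5622 and Wild-type on vehicle chow, each in hippocampus, cortex and thalamus. 5xFAD mice carry mutant human transgenes, App among them, driven by the neuronal Thy1 promoter. PLX5622, a CSF1R inhibitor that removes microglia, was given at 1200 ppm in chow, begun at 1.5 months of age and kept up until 7 months. The region called thalamus in the sample names was dissected together with striatum.

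Atp1b1, Slc8a1, Pex5l and Slc6a17 belong to the everyday machinery of excitable cells, and the others have varied roles. Neurons hold their membrane potential with the sodium-potassium pump, clear calcium with sodium-calcium exchangers, set their excitability with HCN channels and load synaptic vesicles with transporters of the SLC6 family. Within this group, Atp1b1 encodes the beta 1 subunit of the pump, Slc8a1 the exchanger NCX1, Pex5l the HCN channel auxiliary subunit TRIP8b and Slc6a17 a vesicular transporter of neutral amino acids. Efr3a anchors the phosphatidylinositol 4-kinase PI4KA at the plasma membrane, Map2k4 is the kinase MKK4 of the JNK and p38 cascades, and Etv1 is an ETS transcription factor. Dlk2 is a delta-like membrane protein related to Dlk1, Brinp1 is a neural protein inducible by retinoic acid, and Rnf217 belongs to the RBR class of ubiquitin ligases. A bulk library cannot tell fewer cells of a type from less RNA per cell.

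Promoters of 4 of the genes are shown because the genes differed in base composition. The composition that moved with a result given below is that of the spliced transcripts, from which a promoter can differ. Brinp1, for example, had 39.8% G and C in its transcript and 63.3% in its promoter window. They come from RefSeq on build GRCm38.p6 and run 5′ to 3′ from 250 bases before to 50 bases after a start site, 300 bases each, with capitals marking the CpG dinucleotides. Etv1 and Slc8a1 were taken for the fewest CpG dinucleotides among the 8 genes with an entry, and Slc6a17 and Atp1b1 for the most.
Etv1 (chr12:38779832-38780131, + strand): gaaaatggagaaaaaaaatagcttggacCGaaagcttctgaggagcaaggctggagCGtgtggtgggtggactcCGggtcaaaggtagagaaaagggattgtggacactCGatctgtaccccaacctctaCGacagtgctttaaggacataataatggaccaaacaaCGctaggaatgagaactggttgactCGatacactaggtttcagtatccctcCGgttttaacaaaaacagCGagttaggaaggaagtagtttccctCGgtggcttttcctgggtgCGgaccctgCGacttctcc
Slc8a1 (chr17:81738338-81738637, - strand): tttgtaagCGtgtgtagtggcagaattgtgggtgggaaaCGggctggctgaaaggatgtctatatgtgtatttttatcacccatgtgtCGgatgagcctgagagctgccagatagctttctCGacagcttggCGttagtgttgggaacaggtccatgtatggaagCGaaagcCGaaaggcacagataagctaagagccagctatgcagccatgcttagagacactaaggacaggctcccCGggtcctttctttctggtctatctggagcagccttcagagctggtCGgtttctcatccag
Slc6a17 (chr3:107517969-107518268, - strand): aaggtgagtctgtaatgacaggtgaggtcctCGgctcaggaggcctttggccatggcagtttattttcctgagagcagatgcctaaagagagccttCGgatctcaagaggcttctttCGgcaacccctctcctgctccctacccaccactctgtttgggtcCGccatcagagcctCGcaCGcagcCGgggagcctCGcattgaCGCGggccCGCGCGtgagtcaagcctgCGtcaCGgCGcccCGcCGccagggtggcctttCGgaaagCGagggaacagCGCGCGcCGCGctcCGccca
Atp1b1 (chr1:164458306-164458605, - strand): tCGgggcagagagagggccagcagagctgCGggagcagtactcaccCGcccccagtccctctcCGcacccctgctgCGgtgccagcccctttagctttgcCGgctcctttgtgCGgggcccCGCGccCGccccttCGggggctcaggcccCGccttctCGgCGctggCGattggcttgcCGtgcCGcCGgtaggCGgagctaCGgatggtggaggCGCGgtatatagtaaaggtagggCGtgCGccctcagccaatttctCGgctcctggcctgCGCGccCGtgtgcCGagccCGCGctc
The windows of Etv1 and Slc8a1 held 12 and 9 CpG dinucleotides, and those of Slc6a17 and Atp1b1 held 26 and 31. In between were Dlk2 with 14, Rnf217 and Map2k4 with 16 each and Brinp1 with 18. Slc8a1 and Etv1, with the fewest, had the largest untreated hippocampal differences between genotypes, with log2 fold changes of -0.82 and -0.96. Dlk2 had -0.45, Rnf217 -0.43, Brinp1 and Slc6a17 -0.34 each, Atp1b1 -0.22 and Map2k4 -0.21. These fold changes chose the genes, so no trend with the CpG counts is read from them, and none was tested. The median over 32851 promoter windows of the same length was 7, and all 8 member promoters in the reference held more than that. Efr3a and Pex5l had no entry. Where a gene had more than 1 entry, the one nearest the annotated 5′ end was used. On both strands, TGACG, the core of the cyclic AMP response element, was found in 3 of the 8 windows (Dlk2, Slc6a17 and Map2k4) and in 20.8% of all windows. The GC box GGGCGG was found in 3 of the 8 (Brinp1, Slc6a17 and Atp1b1) and in 35.7% of all windows. Neither full cyclic AMP response elements (TGACGTCA, in 1.79% of all windows) nor the 7-base ETS motif CCGGAAG (in 8.86%) were found in any of the 8. Shorter forms of the ETS motif were not searched for.

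The libraries held 6.03 M to 15.36 M reads in genes, as recovered from the steps of the deposited RPKM values. App averaged 774 ± 194 RPKM in 5xFAD and 478 ± 34.2 RPKM in Wild-type hippocampus (SD, n = 4 each), so the transgene labels and the levels matched. Summed over 15 microglial markers, hippocampal libraries held 14.3 to 25.8 RPKM in Wild-type + PLX5622 and 179 to 200 RPKM in Wild-type, against 54.6 to 210 RPKM in 5xFAD + PLX5622 and 472 to 582 RPKM in 5xFAD. Several hippocampal libraries stood apart. 5xFAD libraries 3 and 4 held 1210 and 632 RPKM of 10 striatal markers, against 68.8 to 77.5 RPKM in 5xFAD libraries 1 and 2 and 65.1 to 378 RPKM in the other 12 hippocampal libraries. The 378 RPKM was in Wild-type library 2. Upper and mid cortical layer markers, 11 genes, summed to 440 RPKM in that library and 386 RPKM in 5xFAD + PLX5622 library 1. They summed to 149 to 271 RPKM in the other hippocampal libraries and 380 to 474 RPKM in Wild-type cortex. Dentate gyrus markers, 13 genes, were at 138 and 156 RPKM in the same libraries and 128 RPKM in 5xFAD library 4, against 189 to 353 RPKM in the rest. Choroid plexus markers summed to 5220 RPKM in Wild-type library 3, 4760 RPKM in Wild-type + PLX5622 library 2 and 1750 RPKM in 5xFAD + PLX5622 library 3. The liver transcript Alb was at 634 and 112 RPKM in 5xFAD + PLX5622 libraries 3 and 4. Xist marked 3 of the 16 hippocampal libraries as female, namely 5xFAD library 3, 5xFAD + PLX5622 library 1 and Wild-type library 3. The study's methods count independent biological replicates, and the labels add nothing on which animal a library came from, so the p-values below measure the spread between these libraries.

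All 10 genes were lower in 5xFAD than in Wild-type hippocampus, with a median of -0.44 for the log2 fold change, which is taken throughout between means of log2(RPKM + 0.1). The range ran from -0.96 for Etv1 to -0.21 for Map2k4, against a median of -0.01 over all genes. All 10 were among the 67 genes called lower in this contrast, 0.419% of the genes tested, which is how they were chosen. The groups did not overlap for 6 of the 10 (Efr3a, Dlk2, Rnf217, Brinp1, Map2k4 and Atp1b1), where 6.83% of all genes were lower in every 5xFAD than in every Wild-type library. These counts follow from the choice and nothing is read from them.

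Etv1 (chr12:38779380-38870484 on mm10) showed the widest gap. It read 8.69, 11.3, 5.95 and 7.62 RPKM in the 5xFAD libraries, against 18.3, 10.3, 16.5 and 20.9 RPKM in the Wild-type libraries. Wild-type library 2, the one with cortical layer markers at the level of cortex, was the exception and lay inside the 5xFAD range. Treated 5xFAD libraries had 9.05, 13.9, 10.2 and 13.5 RPKM. In Wild-type + PLX5622 it was 5.75, 6.40, 9.36 and 8.82 RPKM, below all 4 untreated Wild-type libraries. Its log2 fold changes were -0.96 in 5xFAD against Wild-type and -1.09 in Wild-type + PLX5622 against Wild-type (SE 0.23 each).

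Among the transporters and their partners, Slc8a1 (chr17:81373105-81738377) also had its highest mean in Wild-type and its second highest in 5xFAD + PLX5622. Its 5xFAD libraries had 33.2, 37.9, 21.3 and 26.4 RPKM, against 52.0, 54.4, 37.8 and 63.8 RPKM in Wild-type, where library 3 was the lowest. The treated groups had 29.1, 56.4, 35.0 and 53.9 RPKM in 5xFAD + PLX5622 and 26.2, 28.3, 39.9 and 24.5 RPKM in Wild-type + PLX5622. The treated 5xFAD libraries thus split into a low pair, 1 and 3, and a high pair, 2 and 4, and the treated Wild-type libraries overlapped with untreated Wild-type only through library 3.

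Pex5l (chr3:32949408-33143247) read 69.3, 72.7, 45.5 and 58.3 RPKM in 5xFAD, against 92.5, 91.9, 72.3 and 94.7 RPKM in Wild-type. Its lowest Wild-type library, again library 3, came just under the highest 5xFAD library. It was 70.9, 94.8, 66.2 and 84.8 RPKM in 5xFAD + PLX5622 and 59.1, 57.6, 83.3 and 70.4 RPKM in Wild-type + PLX5622. The log2 fold change was -0.53 in 5xFAD against Wild-type and -0.39 in Wild-type + PLX5622 against Wild-type (SE 0.14 each).

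Efr3a (chr15:65787034-65873816) had 36.8, 36.0, 23.3 and 24.3 RPKM in 5xFAD libraries, against 47.4, 49.1, 55.8 and 46.3 RPKM in Wild-type libraries. The treated means, 36.9 ± 3.20 RPKM in 5xFAD + PLX5622 and 35.6 ± 4.43 RPKM in Wild-type + PLX5622, lay between 30.1 ± 7.29 RPKM in 5xFAD and 49.7 ± 4.28 RPKM in Wild-type (SD, n = 4 each). Their libraries had 40.7, 37.4, 32.9 and 36.7 RPKM in 5xFAD + PLX5622 and 31.9, 32.6, 41.6 and 36.4 RPKM in Wild-type + PLX5622. All 8 treated libraries were below all 4 untreated Wild-type libraries. Efr3a was the only one of the 10 whose treated 5xFAD libraries were all below untreated Wild-type, where 2.13% of all genes were. The choice of genes with high Wild-type libraries favours that order.

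Atp1b1 (chr1:164437109-164458355) was the most abundant of the 10 and differed less. Its 5xFAD libraries had 574, 569, 417 and 543 RPKM, against 606, 616, 580 and 630 RPKM in Wild-type. Library 3 lay far below the other three, whose highest value came just under the Wild-type range. It was 613, 557, 512 and 600 RPKM in 5xFAD + PLX5622 and 630, 571, 620 and 603 RPKM in Wild-type + PLX5622, where the mean of 606 ± 25.8 RPKM was close to the 608 ± 21.1 RPKM of Wild-type (SD, n = 4 each).

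Slc6a17 (chr3:107467543-107518018) had 76.7, 78.4, 59.1 and 86.7 RPKM in 5xFAD, against 79.5, 109, 94.4 and 97.1 RPKM in Wild-type, with overlap through Wild-type library 1. Its treated values were 105, 85.8, 75.2 and 72.9 RPKM in 5xFAD + PLX5622 and 99.5, 77.5, 95.7 and 89.5 RPKM in Wild-type + PLX5622. Both treated groups overlapped with both untreated ones.

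Map2k4 (chr11:65688243-65788297) had the smallest difference. It read 49.6, 52.4, 42.1 and 50.3 RPKM in 5xFAD, against 53.9, 57.1, 55.4 and 58.6 RPKM in Wild-type. It was 59.2, 48.7, 47.7 and 56.1 RPKM in 5xFAD + PLX5622 and 53.8, 50.3, 56.7 and 54.5 RPKM in Wild-type + PLX5622. The untreated groups did not overlap, with library 2 of 5xFAD just below library 1 of Wild-type, and the treated libraries ran across both.

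Dlk2 (chr17:46297421-46303271) had 8.75, 8.76, 8.35 and 9.83 RPKM in 5xFAD libraries, against 11.7, 12.8, 12.8 and 11.4 RPKM in Wild-type libraries. The untreated groups did not overlap, and the spread was wider in the treated ones, with 14.1, 13.6, 11.1 and 7.60 RPKM in 5xFAD + PLX5622 and 14.2, 9.49, 10.8 and 9.88 RPKM in Wild-type + PLX5622. With 99 to 297 reads over the 48 libraries it was, beside Rnf217 at 119 to 283 reads, the shallowest of the 10.

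Rnf217 (chr10:31493193-31609184) read 4.32, 5.24, 5.09 and 4.48 RPKM in 5xFAD, against 6.57, 5.97, 6.69 and 6.68 RPKM in Wild-type. It was 6.18, 7.43, 6.75 and 6.54 RPKM in 5xFAD + PLX5622 and 4.53, 5.28, 5.60 and 4.62 RPKM in Wild-type + PLX5622. Untreated 5xFAD and treated Wild-type thus formed a low level, and treated 5xFAD and untreated Wild-type a high one, with no overlap between them.

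Brinp1 (chr4:68761514-68954397) had 62.0, 59.1, 48.3 and 56.8 RPKM in 5xFAD, against 65.4, 86.9, 64.9 and 70.3 RPKM in Wild-type. Its treated libraries had 65.4, 67.6, 78.5 and 65.9 RPKM in 5xFAD + PLX5622 and 66.3, 78.0, 72.1 and 62.4 RPKM in Wild-type + PLX5622. All 12 libraries of the other 3 groups were above all 4 untreated 5xFAD libraries.

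**Figure D1:**
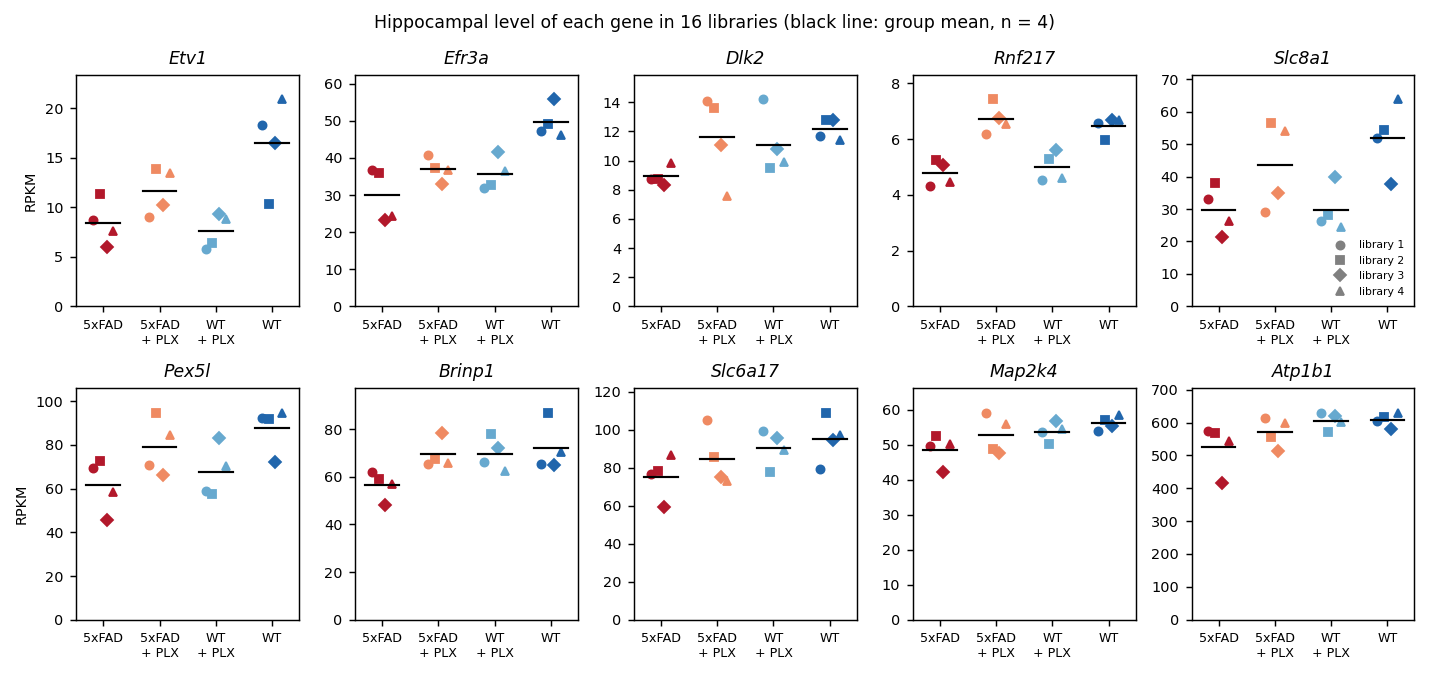
Level of each gene in RPKM (vertical axis, from 0) in the 4 hippocampal libraries of each group (marker shape gives the library number), with the group mean as a black line. 5xFAD library 3 is the lowest of its group for 9 of the 10 genes, and Etv1, Efr3a and Rnf217 are lower in every Wild-type + PLX5622 than in every Wild-type library.

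PLX5622 in hippocampus is given side by side for both genotypes, since each comparison shares 4 libraries with the contrast that chose the genes. That choice favours treated values above untreated 5xFAD and below untreated Wild-type. The signs and counts in this paragraph follow in part from it. In 5xFAD + PLX5622 against 5xFAD the 10 log2 fold changes were all above 0, with a median of 0.33 and a range of 0.12 to 0.53. In Wild-type + PLX5622 against Wild-type they were all below 0, with a median of -0.26 and a range of -1.09 to -0.01. That sign was not stable for 5 of them: it turned with the GC adjustment described further on for Rnf217 (0.21), Brinp1 (0.34) and Map2k4 (0.03), and with voom for Brinp1 (0.04), Slc6a17 (0.01), Map2k4 (0.01) and Atp1b1 (0.07). Rnf217 and Brinp1 were higher in every treated than in every untreated 5xFAD library, where 2.69% of all genes were. Etv1, Efr3a and Rnf217 were lower in every treated than in every untreated Wild-type library, where 8.32% of all genes were. Slc8a1 was at -0.81 in treated against untreated Wild-type, while Brinp1, Slc6a17, Map2k4 and Atp1b1 lay at -0.04, -0.07, -0.06 and -0.01. Treated 5xFAD against untreated Wild-type gave -0.47 for Etv1, -0.43 for Efr3a and -0.28 for Slc8a1, and from -0.17 to 0.05 for the other 7.

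Whether the genes also differ by genotype in libraries that played no part in their choice was tested in the treated mice and in the other regions. In 5xFAD + PLX5622 against Wild-type + PLX5622 hippocampus, 0 of the 10 genes passed limma's test at an adjusted p of 0.05, where 0.808% of all genes did. Each treated genotype comparison was adjusted alone, while the untreated ones were adjusted together with the study's other comparisons. Adjusted alone, the contrast that chose the genes called 2 of the 10 (12 of all genes lower), against 10 when adjusted together (67 lower). The treated and untreated counts are therefore not on the same scale. Of the 10, 6 were above 0 and 4 below, with a median of 0.05, and voom on recovered reads also called 0. Rnf217 came closest, at 6.73 ± 0.525 RPKM in 5xFAD + PLX5622 and 5.01 ± 0.520 RPKM in Wild-type + PLX5622 (SD, n = 4 each). Its log2 fold change was 0.42 (SE 0.12, limma unadjusted p = 0.000839, limma adjusted p = 0.0864). It was higher in every treated 5xFAD than in every treated Wild-type library, where 2.59% of all genes were. Etv1 had 0.62 (SE 0.23, limma adjusted p = 0.272) and Slc8a1 0.52 (SE 0.25, limma adjusted p = 0.452), and these were the 3 genes with an unadjusted p under 0.05. Leaving out 5xFAD + PLX5622 cortex library 4, which enters only through the shared spread, brought Rnf217 past the threshold (limma adjusted p = 0.0473), and no other library or planned setting made a call here.

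In cortex, 0 of the 10 genes passed the test in 5xFAD against Wild-type, where 0.732% of all genes did, and 0 had an unadjusted p under 0.05 or were called by voom. The log2 fold changes ran from -0.20 for Dlk2 to 0.03 for Pex5l, with a median of -0.04. Atp1b1 for example had 584 ± 18.3 RPKM in 5xFAD and 591 ± 13.3 RPKM in Wild-type cortex (SD, n = 4 each). In thalamus the count was again 0 of 10, where 0.413% of all genes passed, with 0 at an unadjusted p under 0.05 or by voom, and the log2 fold changes ran from -0.11 for Atp1b1 to 0.33 for Slc8a1. In treated mice 0 of 10 passed in cortex (0.0626% of all genes) and 0 of 10 in thalamus (0.0376%), with 0 and 2 at an unadjusted p under 0.05 and 0 in each by voom. Atp1b1 at -0.19 and Map2k4 at -0.17 had the lowest limma adjusted p in treated thalamus, 0.274 and 0.324. Striatal markers summed to 236 to 652 RPKM in 5xFAD + PLX5622 and 87.7 to 135 RPKM in Wild-type + PLX5622 thalamus, with all 10 above 0 in this comparison (median 2.09), and their part in it was not tested. The SE of these log2 fold changes was 0.06 to 0.25 per gene.

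**Figure D2:**
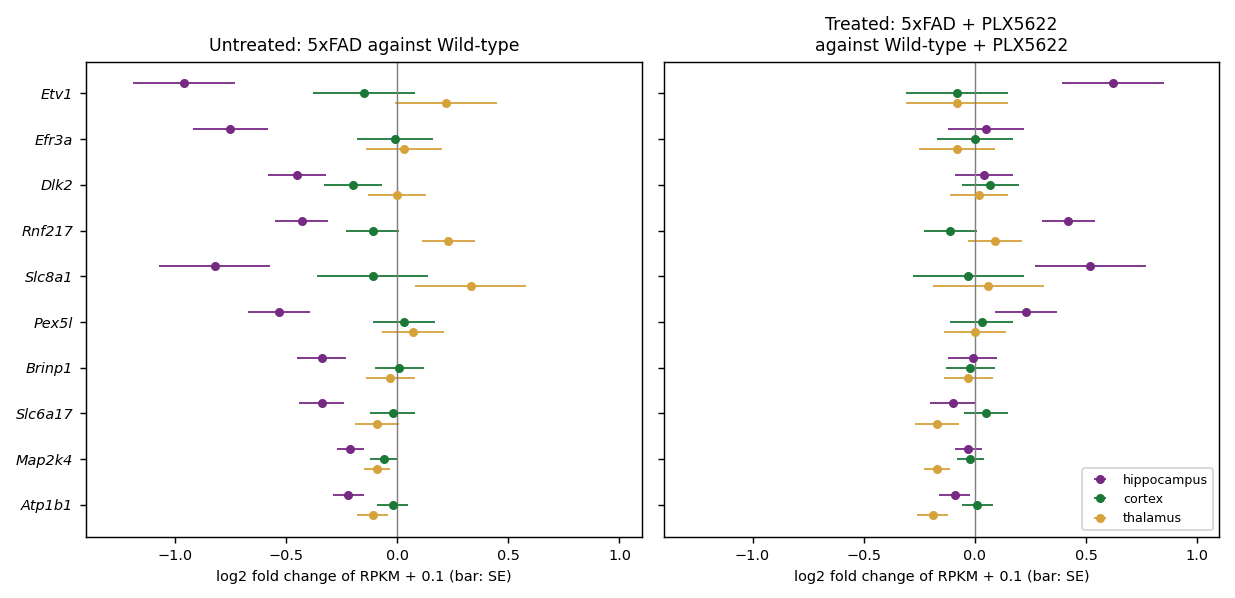
Log2 fold change of RPKM + 0.1 between genotypes (horizontal axis, bars are 1 SE) for each gene in hippocampus, cortex and thalamus, in untreated (left) and treated mice (right). Only the untreated hippocampal points, which chose the genes, all lie below 0, and the treated hippocampal points run from -0.10 to 0.62.

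The differences between these effects were tested where no library had taken part in the choice. Over 5 such differences, 0 of the 10 genes passed by limma or by voom, with 2, 1, 1, 0 and 0 of them at an unadjusted p under 0.05 in the order given here. For the treated genotype effect, hippocampus minus cortex, 0.0% of all genes passed by limma (1305 had an unadjusted p under 0.05), and hippocampus minus thalamus gave 0.2%. The untreated genotype effect, cortex minus thalamus, gave 0.0% (386 genes with an unadjusted p under 0.05). The PLX5622 effect, 5xFAD minus Wild-type, gave 0.0% in cortex (406 genes with an unadjusted p under 0.05) and 0.00626% in thalamus. Rnf217 had the lowest p of the 10, with a difference of 0.53 between treated hippocampus and cortex (SE 0.16, limma adjusted p = 0.558).

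Outside the hippocampus, PLX5622 was compared with vehicle chow in each genotype. In 5xFAD + PLX5622 against 5xFAD, 0 of 10 passed in cortex, where 2.13% of all genes did, and 0 of 10 in thalamus, where 2.76% did. In Wild-type + PLX5622 against Wild-type, 0 of 10 passed in cortex (1.38% of all genes) and 0 of 10 in thalamus (3.84%). Those with an unadjusted p under 0.05 were 0 and 2 in 5xFAD cortex and thalamus and 1 and 1 in Wild-type cortex and thalamus, and voom called 1, Brinp1 in 5xFAD thalamus. Brinp1 was close in thalamus in both genotypes. It averaged 33.5 ± 3.90 RPKM in 5xFAD + PLX5622 and 42.5 ± 7.06 RPKM in 5xFAD thalamus, and 34.3 ± 3.74 RPKM in Wild-type + PLX5622 and 43.0 ± 5.00 RPKM in Wild-type thalamus (SD, n = 4 each). Its log2 fold change was -0.33 in each genotype (SE 0.11, limma adjusted p = 0.0545 in 5xFAD and 0.0622 in Wild-type). With sex as a covariate both passed (limma adjusted p = 0.00956 in 5xFAD and 0.00282 in Wild-type). The 5xFAD difference of Brinp1 also passed without 5xFAD thalamus library 3 (limma adjusted p = 0.0144), 5xFAD + PLX5622 hippocampus library 3 (0.05), Wild-type hippocampus library 2 (0.0398), Wild-type thalamus library 1 (0.0447) or Wild-type + PLX5622 thalamus library 3 (0.0490). The Wild-type difference of Brinp1 passed without 5xFAD thalamus library 1 (limma adjusted p = 0.0424), Wild-type hippocampus library 2 (0.0461), Wild-type thalamus library 3 (0.0416) or Wild-type + PLX5622 thalamus library 3 (0.0323). The thalamic libraries also differed in striatal transcript, though 0 of its 10 markers were called between diets. These markers summed to 236 to 652 RPKM in 5xFAD + PLX5622 and 101 to 747 RPKM in 5xFAD thalamus (10 of 10 above 0, median 0.68), and to 87.7 to 135 RPKM in Wild-type + PLX5622 and 131 to 700 RPKM in Wild-type thalamus (10 of 10 below 0, median -1.47). The part of striatal transcript in the thalamic results, those of the related genes below included, was not tested. Dlk2 in Wild-type cortex was at 10.3 ± 1.15 RPKM with PLX5622 and 13.3 ± 0.910 RPKM without (SD, n = 4 each), or -0.37 on the log2 scale (SE 0.13, limma adjusted p = 0.0941). It passed without 5xFAD + PLX5622 hippocampus library 4 (limma adjusted p = 0.0356).

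Levels across regions were compared in Wild-type + PLX5622, the Wild-type group that had no part in the choice. Hippocampus was lower than cortex for 3 of the 10 genes, where 35.8% of all genes were called, 2856 higher and 2859 lower. Rnf217 had 5.01 ± 0.520 RPKM in hippocampus and 8.14 ± 0.363 RPKM in cortex (log2 fold change -0.70, limma adjusted p = 5.32e-05), Etv1 7.58 ± 1.78 and 13.0 ± 1.31 RPKM (-0.79, limma adjusted p = 0.00778) and Slc8a1 29.7 ± 6.93 and 51.8 ± 6.61 RPKM (-0.82, limma adjusted p = 0.0116). With the GC adjustment the call of Rnf217 was lost (-0.26, limma adjusted p = 0.267). In these 3 genes all 4 hippocampal libraries were below all 4 cortical ones. Hippocampus was higher than thalamus for 2 of the 10, where 28.0% of all genes were called, 2275 higher and 2192 lower. Brinp1 had 69.7 ± 6.81 RPKM in hippocampus and 34.3 ± 3.74 RPKM in thalamus, a log2 fold change of 1.02 (limma adjusted p = 6.59e-10). Dlk2 had 11.1 ± 2.13 RPKM in hippocampus and 7.56 ± 0.630 RPKM in thalamus (0.53, limma adjusted p = 0.00162). Without Wild-type + PLX5622 hippocampus library 2, the one with choroid plexus transcripts, Slc6a17 passed as well (0.28, limma adjusted p = 0.0390). In untreated Wild-type, whose hippocampal libraries took part in the choice, the values are a description. There Etv1 averaged 16.5 ± 4.47 RPKM in hippocampus and 12.9 ± 1.59 RPKM in cortex, the opposite order of the treated group, and Slc8a1 52.0 ± 10.7 and 51.6 ± 2.47 RPKM (SD, n = 4 each).

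The order of the 12 group means is a description, since hippocampal 5xFAD and Wild-type libraries chose the genes and a high place of Wild-type or a low place of 5xFAD hippocampus follows in part from that choice. The highest mean fell in Wild-type hippocampus for 6 of the 10 genes, Etv1, Efr3a, Slc8a1, Pex5l, Brinp1 and Atp1b1. For Slc8a1, Wild-type + PLX5622 cortex at 51.8 ± 6.61 RPKM was within the spread of the 52.0 ± 10.7 RPKM in Wild-type hippocampus, and the Wild-type and 5xFAD + PLX5622 cortices at 51.6 and 50.6 RPKM were too. Atp1b1 moved least, from a mean of 521 ± 28.0 RPKM in 5xFAD + PLX5622 thalamus to 608 ± 21.1 RPKM in Wild-type hippocampus. Slc6a17 was highest in Wild-type cortex (96.9 ± 6.91 RPKM), followed by 5xFAD cortex (95.4 ± 3.58 RPKM) and Wild-type hippocampus (95.1 ± 12.2 RPKM), which did not differ beyond their spread. Map2k4 and Rnf217 had their lowest means in 5xFAD hippocampus, at 48.6 ± 4.47 and 4.78 ± 0.450 RPKM, and the lowest mean of the remaining 8 lay in a thalamic group.

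**Figure D3:**
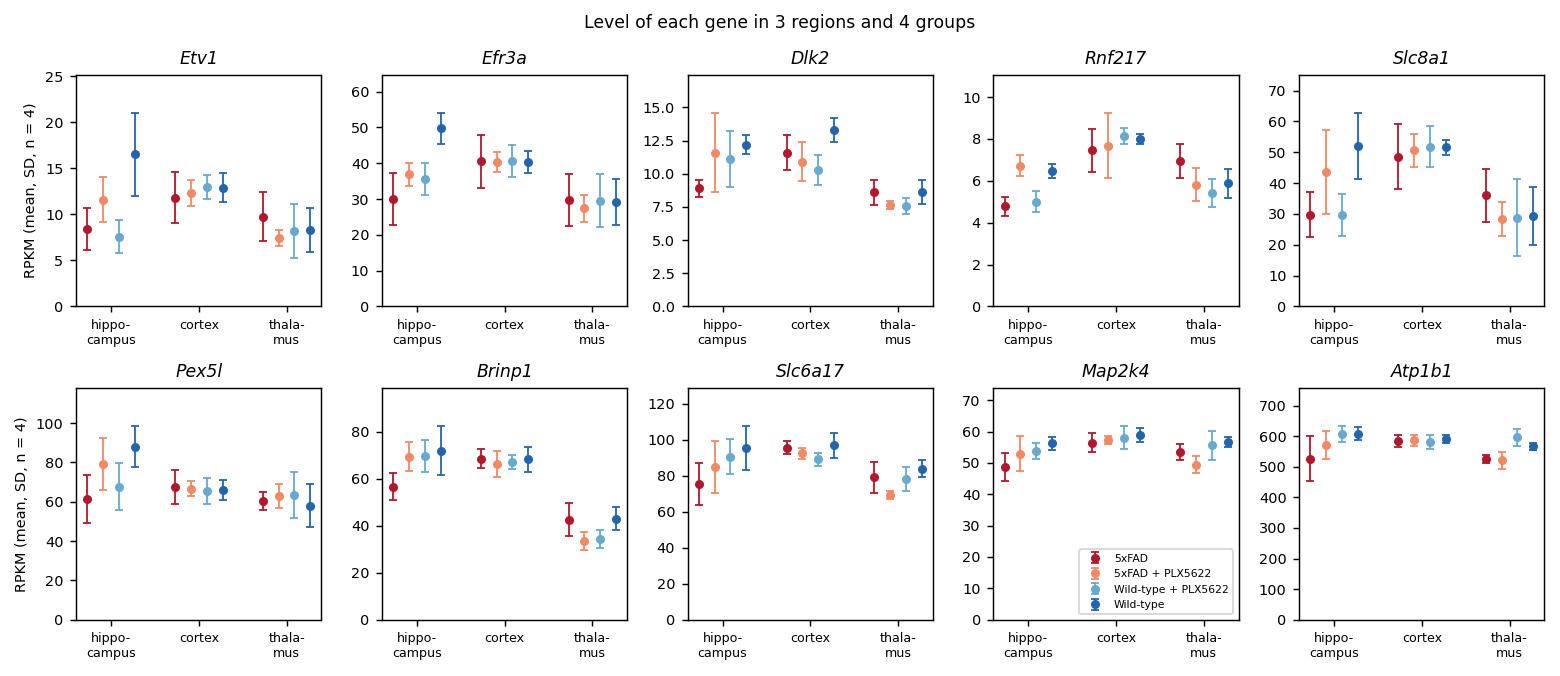
Mean level in RPKM (vertical axis, from 0) of each gene in hippocampus, cortex and thalamus for the 4 groups of genotype and diet (bars are 1 SD, n = 4 libraries). Brinp1 is lowest in thalamus in all 4 groups, with 33.5 RPKM in 5xFAD + PLX5622 and 43.0 RPKM in Wild-type as its lowest and highest thalamic means.

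Relatives and partners of the genes were taken from 10 lists holding 86 genes tested besides the 10. Genotype moved 0 of the 86 in cortex, thalamus and the 3 treated comparisons. With PLX5622, 4 of the 86 were called in 5xFAD thalamus and 5 in Wild-type thalamus, where 2.76% and 3.84% of all genes were, and 1 in the cortex of each genotype. Among the Na,K-ATPase subunits besides Atp1b1, the beta 2 subunit Atp1b2 (log2 fold change 0.43, limma adjusted p = 0.0253) and the beta 3 subunit Atp1b3 (0.26, 0.0299) rose in 5xFAD + PLX5622 against 5xFAD thalamus. Atp1b3 rose in Wild-type thalamus too (0.26, limma adjusted p = 0.0242), and Atp1b1 itself had -0.01 in 5xFAD and 0.07 in Wild-type. Of 10 exchangers and calcium pumps besides Slc8a1, the neuronal exchanger Slc8a2 (-0.90, limma adjusted p = 7.79e-05) and the potassium-dependent exchanger Slc24a4 (-0.95, 0.0231) fell in Wild-type + PLX5622 against Wild-type thalamus. Hcn2, a pacemaker channel gene, rose there (0.48, limma adjusted p = 0.0301) and Mapk14, encoding p38 alpha, fell (-0.28, 0.0300). Fli1, an ETS factor also found in microglia and endothelium, fell with PLX5622 in 5xFAD cortex (-0.89, limma adjusted p = 0.000298), 5xFAD thalamus (-0.63, 0.0135) and Wild-type cortex (-0.54, 0.0385). Between regions in Wild-type + PLX5622, 36 of the 86 were called against cortex, 24 higher and 12 lower in hippocampus, and 33 against thalamus, 15 higher and 18 lower. Slc8a2 was higher in hippocampus than in cortex (0.45, limma adjusted p = 0.0182) and thalamus (2.17, 6.38e-14). Atp1b2 was higher than in cortex (0.37, limma adjusted p = 0.0140) and lower than in thalamus (-0.58, 0.000197), and so was Hcn2 (0.49 and -0.71, limma adjusted p = 0.00635 and 0.00011). Brinp3 was called in both (-1.39 against cortex and -0.82 against thalamus, limma adjusted p = 7.58e-06 and 0.00134), opposite in sign to the 1.02 of Brinp1 against thalamus.

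Other genes were ranked by how closely they followed the mean of the 10 between the libraries of a group. After group means were removed over the 16 hippocampal libraries, Pearson's r to the mean of the 10 was 0.92 for Crhbp, 0.91 for Shank1, 0.90 for Rspo3 and Sidt1, 0.88 for Fam155a, 0.87 for Mical2 and 0.84 for Ociad2 (n = 16 libraries, a description). These r are among the 8 highest of the genes ranked, so their size follows in part from the ranking. The points share library, dissection and base composition.

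The 10 genes themselves did not move as a single unit. Over 45 pairs the median r within groups was 0.25, from -0.41 for Rnf217 with Slc6a17 to 0.87 for Slc8a1 with Pex5l and for Map2k4 with Atp1b1 (n = 16 libraries). Against the mean of the other 9, r was 0.81 for Pex5l and 0.74 for Atp1b1 but -0.05 for Rnf217 and -0.01 for Dlk2.

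Striatal transcript moved with the untreated difference. 5xFAD library 3, which was lowest of its group for 9 of the 10 genes, also held the most striatal transcript, with Drd1 at 50.3 RPKM, Drd2 at 55.6 RPKM, Penk at 275 RPKM and Ppp1r1b at 368 RPKM. Library 4 held 26.0, 28.6, 146 and 203 RPKM of the same genes, and libraries 1 and 2 had Penk at 14.9 and 10.9 RPKM and Ppp1r1b at 25.3 and 23.7 RPKM. All 10 striatal markers had a log2 fold change above 0 in 5xFAD against Wild-type hippocampus, with a median of 1.17. Pan-neuronal markers, 14 genes, summed to 2140 to 2920 RPKM in 5xFAD and 2730 to 3620 RPKM in Wild-type, and 16 CA field markers to 206 to 262 RPKM in 5xFAD and 254 to 308 RPKM in Wild-type. Of 12 thalamic markers 2 were below 0 (median 0.68), and of 18 markers of subiculum and deep cortical layers 13 were (median -0.26). Without 5xFAD library 3, 3 of the 10 genes (Etv1, Efr3a and Rnf217) passed the test that chose them. In that fit 20 of 15975 genes were called lower, against 67 with all libraries. Without libraries 3 and 4 together 0 of 10 passed, where 15 of all genes were called lower. That fit left 2 libraries in the group. Without both, the median of the 10 was -0.37, with its direction fixed by the choice. Etv1 was then at -0.68, Efr3a at -0.44, Slc8a1 at -0.53, Pex5l at -0.30 and Atp1b1 at -0.09, while Dlk2 at -0.47 and Rnf217 at -0.44 were as large as with all 4. Leaving out Wild-type library 2 or 4 left 4 of the 10 called (45 and 35 of all genes called lower). Leaving out 5xFAD library 1 left 6 (73 of all genes called lower). In 5xFAD + PLX5622 against 5xFAD, leaving out the same pair gave a median of 0.17, with Efr3a at 0.02 and Atp1b1 at -0.01, against a median of 0.33 with all libraries. What part the striatal transcript has in these differences was not tested.

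**Figure D4:**
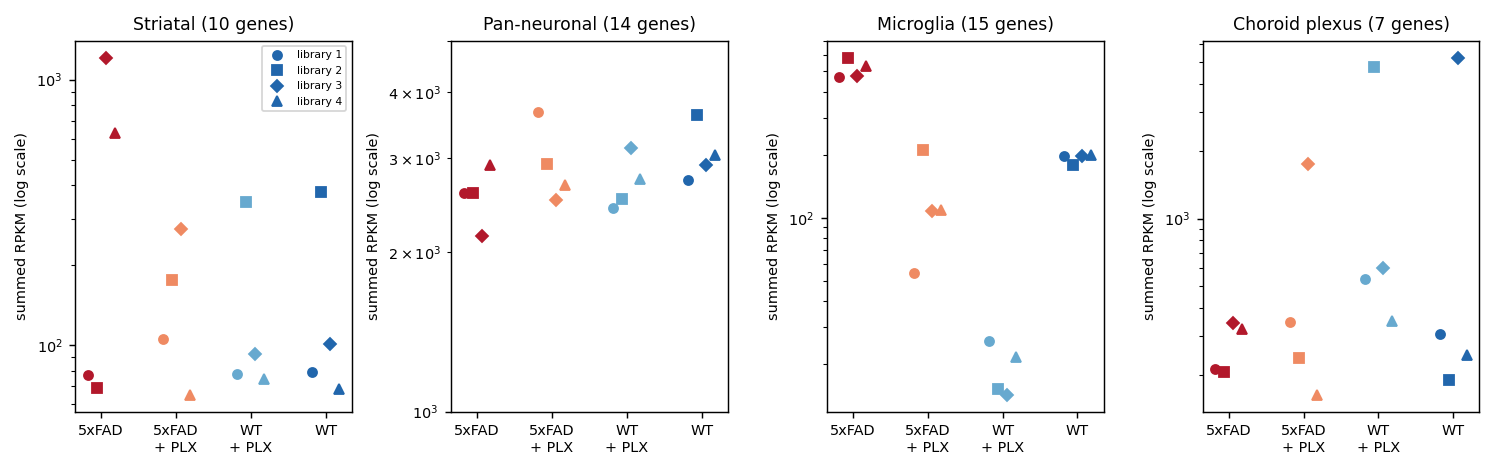
Summed RPKM (vertical axis, log scale) of 4 marker lists in each hippocampal library (marker shape gives the library number). 5xFAD libraries 3 and 4 lie above the rest for striatal markers at 1210 and 632 RPKM, and microglial markers are highest in the 4 5xFAD libraries and lowest in the 4 Wild-type + PLX5622 libraries.

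Base composition moved with it as well. The spliced transcripts of the 10 genes held 38.4% (Rnf217) to 61.5% (Dlk2) G and C, with a median of 43.8% against 49.9% over 14694 genes with an annotated transcript. They were also drawn from long genes, with a median span of 95.6 kb against 25.5 kb. In each library the median deviation of the 2551 genes with the lowest GC content (43.9% or less) from the mean of the 16 hippocampal libraries was taken. It was -0.02, 0.05, 0.03 and -0.23 in 5xFAD, against 0.15, 0.16, 0.13 and 0.16 in Wild-type, on the log2 scale. It was -0.04, 0.12, 0.01 and 0.18 in 5xFAD + PLX5622 and -0.58, -0.01, 0.01 and -0.07 in Wild-type + PLX5622. All 4 Wild-type libraries were thus above all 4 libraries of 5xFAD and of Wild-type + PLX5622, the same order as for Rnf217 in these groups. The likeness did not extend to 5xFAD + PLX5622. Rnf217 was there at 6.18 to 7.43 RPKM, above all 5xFAD libraries, while the low-GC deviation overlapped with that of 5xFAD. With the trend taken out of each library by bins of GC content, a step chosen after the values were seen, the log2 fold change in 5xFAD against Wild-type became -0.06 for Rnf217 (from -0.43 as deposited), -0.11 for Brinp1 (-0.34), -0.16 for Map2k4 (-0.21), -0.58 for Slc8a1 (-0.82), -0.61 for Efr3a (-0.75) and -0.72 for Etv1 (-0.96). Pex5l at -0.52, Dlk2 at -0.45, Slc6a17 at -0.36 and Atp1b1 at -0.23 stayed within 0.02 of their deposited values. In Wild-type + PLX5622 against Wild-type, Rnf217 became 0.21 and Brinp1 0.34, Etv1 -0.71, Slc8a1 -0.42 and Pex5l -0.36. The treated genotype difference of Rnf217 became -0.02. What part base composition has in these differences was not tested.

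**Figure D5:**
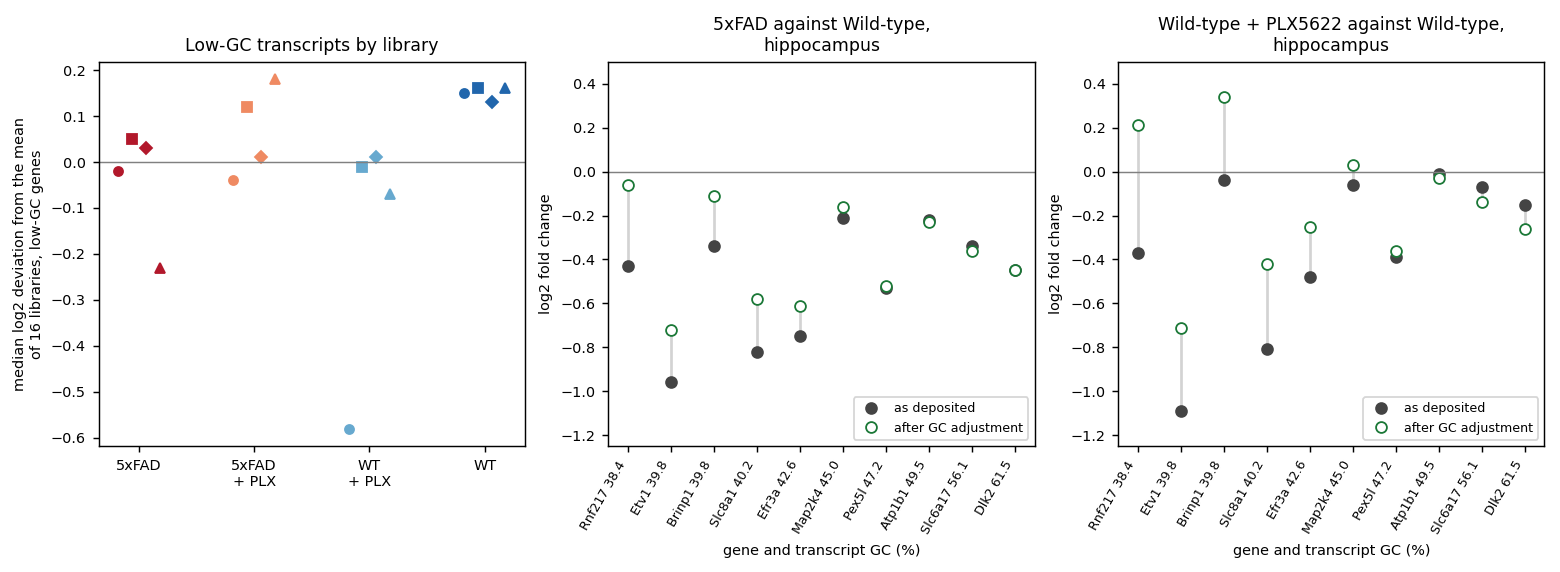
Left, median log2 deviation of the low-GC genes in each hippocampal library; middle and right, log2 fold change of each gene as deposited (filled) and after GC adjustment (open), with genes ordered by transcript GC content in percent. Rnf217, Etv1, Brinp1 and Slc8a1, at 38.4% to 40.2% GC, shift most, and the genes from 45.0% upwards shift by at most 0.11. Each shift is set by the GC bin of the gene, whose median deviation was subtracted, and not by the gene itself.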

How the data were processed

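RPKM values, which scale reads by transcript length and library size, of 16014 genes in 48 libraries were deposited by the authors, with Entrez numbers and symbols. Per the labels, total RNA was extracted with Trizol and made into Illumina TruSeq libraries, whereas the study's methods name another kit with ribosomal RNA depletion; which was used is unsure. The submitters' processing notes name STAR, featureCounts, edgeR, limma and build mm10. App values can include reads of the human transgene.

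Whole reads were recovered from the RPKM steps for 16012 genes (within 0.05 of a whole number) and used for depth and 1 alternative only. Tests used limma 3.58.1 in R 4.3.3 on log2(RPKM + 0.1), with 12 group means over all 48 libraries and a mean-variance trend, for the 15975 genes with at least 0.2 RPKM in at least 4 libraries. Benjamini-Hochberg adjustment ran over the study's 15 comparisons together, or over each further comparison alone, and adjusted p under 0.05 was called. A log2 fold change on this scale understates the change of low genes. The fit was tested on simulated data. GENCODE M21 gave transcript lengths and GC content, matched by Entrez number for 14729 genes.

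The 10 genes and all lists were chosen with earlier results of these data known. The rule for naming other genes took relatives called in a tested comparison (otherwise the 3 most abundant of a list) and the 8 genes most like the 10 in hippocampus; relatives called between regions are mostly given by count, and some genes this rule takes are not reported here. Alternatives were other pseudocounts, filters, scalings and adjustments, voom on the recovered reads, single regions, blocks for replicate number or animal, sex or a dentate gyrus score as covariates, and single libraries left out. A GC adjustment in 20 bins within each region, and leaving out both 5xFAD libraries with striatal transcripts, were added after the data were seen. The same number in 2 regions had the same sex call for all 16 numbers, but same-numbered libraries had a median r of 0.02 in their deviations from group means, against 0.00 for other numbers.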

Additional observations from a re-analysis of the deposited data

Results flagged for a closer look

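In 7 of 120 groups of 4 (10 genes in 12 groups), 1 library lay far from the other three by Dixon's test at the 95% level; chance flags about 1 in 20 groups. In hippocampus, Rnf217 was at 5.97 RPKM in Wild-type library 2, against 6.57 to 6.69 RPKM in the others. Pex5l was at 72.3 RPKM in Wild-type library 3, against 91.9 to 94.7 RPKM, and that library also held the choroid plexus transcripts. Brinp1 reached 78.5 RPKM in 5xFAD + PLX5622 library 3, the library with the most Alb, against 65.4 to 67.6 RPKM. In thalamus, Etv1 was at 6.17 RPKM in 5xFAD + PLX5622 library 4, against 7.80 to 7.92 RPKM, and Brinp1 was at 27.7 RPKM in 5xFAD + PLX5622 library 1, against 35.3 to 35.7 RPKM. In cortex, Slc8a1 was at 47.9 RPKM in Wild-type library 1, against 52.4 to 53.1 RPKM, and Map2k4 at 63.3 RPKM in Wild-type + PLX5622 library 2, against 55.8 to 57.0 RPKM.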

How the results depend on the processing

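The counts of genes called were 0 in cortex and thalamus between genotypes, with and without PLX5622, and in the 5 differences of effects, under every alternative run. In 5xFAD + PLX5622 against 5xFAD thalamus the count became 1 (Brinp1) with rescaled libraries, with voom on recovered reads and with sex as a covariate, and in Wild-type + PLX5622 against Wild-type thalamus 1 with sex as a covariate. With single libraries left out, each of these counts ran from 0 to 1, as did those of treated against untreated Wild-type cortex and of the treated genotypes in hippocampus. With the replicate block, by number or by animal, the counts stayed at 0 for genotype and treatment, at 3 for hippocampus against cortex and at 2 for hippocampus against thalamus. Among the described hippocampal values, the median of 5xFAD + PLX5622 against 5xFAD became 0.17 without both libraries with striatal transcripts, and Atp1b1 became -0.01. In Wild-type + PLX5622 against Wild-type, the sign turned with voom for Brinp1 (0.04), Slc6a17 (0.01), Map2k4 (0.01) and Atp1b1 (0.07), with the GC adjustment for Rnf217 (0.21), Brinp1 (0.34) and Map2k4 (0.03), and without single libraries for Brinp1 (0.01 to 0.06, against a lowest of -0.10), Slc6a17 (0.01, lowest -0.15) and Atp1b1 (0.02, lowest -0.03). With the GC adjustment, Rnf217 in treated 5xFAD against treated Wild-type turned to -0.02. The cause was not tested in any of these.

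In the contrast that chose the genes, 10 of 10 were called in the fit described, where 67 of 15975 genes were called lower. With rescaled libraries 5 were called (46 of all genes lower), and with voom also 5 (33 of 15973 lower). The GC adjustment left 7 (137 of 14694 lower), and the dentate gyrus score as covariate 3 (92 of all genes lower). Adjusting the comparison by itself left 2 (12 of all genes lower), and fitting each region alone left 1 (23 lower). The direction of the 10 was fixed by their choice. With the GC adjustment 2 genes were called between hippocampus and cortex and 3 between hippocampus and thalamus. Dlk2, at 99 to 297 reads over the 48 libraries, and Rnf217, at 119 to 283, were the least deeply read.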
